A study of Mus musculus with 25 samples.

Results

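The genes described here encode the ligands and receptors of axon guidance in αTC1 and βTC6 cells, 2 mouse lines derived from pancreatic islet tumours. Members were chosen by symbol: the semaphorins of classes 3 to 7, the plexins, both neuropilins, the ephrins and Eph receptors, the slits and Robo receptors, netrins 1 to 5, the Unc5 receptors and Dcc. The rule found 70 of the 24439 entries of the RNA-seq table, which stood for 69 symbols because Efna5 was listed under a pair of overlapping Ensembl identifiers. It also found 585 of the 65053 consensus ATAC-seq peaks, by the gene the authors named as nearest. These peaks carried 63 of the member symbols and the antisense transcript Plxna4os1, which matches the same text pattern and held 3 peaks. No peak was annotated to Ephb4, Sema7a, Plxnb3, Robo4, Efnb3 or Efna4.

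Axon guidance molecules steer growing axons and migrating cells. A secreted or membrane-bound ligand binds a receptor on the neighbouring or passing cell, and the receptor acts on the actin cytoskeleton to attract or repel it. Semaphorins signal through plexins, with neuropilins as co-receptors for most of the secreted class 3 members, ephrins through Eph receptors, slits through Robo receptors, and netrins through Dcc and the Unc5 receptors. Several of these families are also known in pancreatic islets, where ephrin and Eph contacts between beta cells affect insulin secretion and Slit and Robo signalling takes part in islet architecture.

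αTC1 (alpha TC1 clone 6) is a glucagon-producing clone and βTC6 (beta-TC-6) an insulin-producing line, both made from tumours of transgenic mice in which the SV40 large T antigen was driven by the promoter of the respective hormone gene. Each line was therefore 1 clonal or continuous culture and not a sample of primary alpha or beta cells. The lines were grown in different media, so that line and medium cannot be told apart. RNA-seq was available for 3 libraries of each line and ATAC-seq for 5 libraries of each line and for 9 mixtures of them, 1 library each, that held 10 to 90% αTC1 cells. No source states that replicates came from separate cultures, and p-values measure the spread between these libraries, which may be technical.

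RNA-seq libraries held 21954031 to 26033482 expected counts, and ATAC-seq libraries 4397851 to 10374903 reads in peaks. The hormone genes followed the labels, with Gcg at 12113 to 14406 FPKM in αTC1 and 172 to 267 in βTC6, and Ins2 at 0.19 to 0.64 FPKM in αTC1 and 23541 to 35748 in βTC6. Sst, the delta cell hormone, was at 207 to 325 FPKM in βTC6 and 0 in every αTC1 library, and Ppy, the pancreatic polypeptide gene, at 50.8, 3.7 and 23.4 FPKM in βTC6 and at most 0.1 in αTC1. The 4 endothelial markers summed to 0.06 to 0.12 FPKM in αTC1 and 0.23 to 0.31 in βTC6, and each was under 1 in every library. Of the 5 neuron and glia markers, which summed to 59.2 to 62.4 FPKM in αTC1 and 24.8 to 25.9 in βTC6, the glial gene Sox10 was at 0 throughout, whereas the neuronal gene Elavl3 was at 53.0 to 54.4 FPKM in αTC1 and 4.42 to 5.36 in βTC6, and Elavl4 at 3.94 to 6.1 and 17.9 to 19.1. The fibroblast list summed to 2.42 to 3.5 FPKM in αTC1 and 0.38 to 0.56 in βTC6, with Col1a2 and Pdgfra called lower in βTC6 by edgeR, and the acinar list to 3.58 to 3.73 and 0.14 to 0.91, with Cela1 called lower. The leukocyte list was at 1.29 to 1.68 and 2.06 to 2.25, and the duct list at 4.1 to 9.93 and 6.96 to 13.3. The part of these markers in the results was not tested. In bulk samples, fewer cells with a transcript and less RNA per cell cannot be told apart. αTC1 RNA-seq replicate 3 differed from replicates 1 and 2 with a chi-square per degree of freedom of 26.3 and 27.7, which exceeds sampling noise. The βTC6 RNA-seq pairs were at 16.4, 23.7 and 36.2. αTC1 replicates 1 and 2, at 2.03, were thus unusually alike. The ATAC-seq replicates 1 to 3 of each line resembled each other (2.06 to 2.54) more than replicates 4 and 5 (4.38 to 10.5).

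Before the levels, the sequences of 5 accessible regions are given, since these regions are among the called peaks with the largest moderated statistics and lie outside annotated exons. Each is the central 300 bases of a peak, read from the plus strand of the mm9 assembly with the peak starts of the files taken as 1-based. The regions were chr8:30232280-30232579 in an intron of Unc5d, chr17:63200597-63200896 in an intron of Efna5, chr5:17154578-17154877 in an intron of Sema3c, chr1:36628614-36628913 in an intron of Fam178b with Sema4c as the nearest gene, and chr10:93083286-93083585 in intergenic sequence upstream of Ntn4. The first 3 were more accessible in βTC6 and the last 2 in αTC1. Capitals mark CAGCTG, the core of a common E-box, TAATTA, a core bound by many homeodomain factors, and TGTTTAC, a forkhead core, searched on both strands.
Unc5d intron: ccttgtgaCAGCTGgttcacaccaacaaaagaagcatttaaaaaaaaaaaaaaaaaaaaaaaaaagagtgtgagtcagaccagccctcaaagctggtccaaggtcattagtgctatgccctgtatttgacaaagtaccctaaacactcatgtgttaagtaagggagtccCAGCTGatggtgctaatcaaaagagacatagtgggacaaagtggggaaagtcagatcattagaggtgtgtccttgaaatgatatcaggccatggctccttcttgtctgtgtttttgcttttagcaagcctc
Efna5 intron: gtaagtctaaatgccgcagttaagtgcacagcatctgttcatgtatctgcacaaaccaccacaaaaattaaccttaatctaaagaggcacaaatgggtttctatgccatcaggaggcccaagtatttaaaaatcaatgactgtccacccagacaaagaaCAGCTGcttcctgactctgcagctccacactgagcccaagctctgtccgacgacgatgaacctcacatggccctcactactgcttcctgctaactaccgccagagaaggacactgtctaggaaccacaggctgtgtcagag
Sema3c intron: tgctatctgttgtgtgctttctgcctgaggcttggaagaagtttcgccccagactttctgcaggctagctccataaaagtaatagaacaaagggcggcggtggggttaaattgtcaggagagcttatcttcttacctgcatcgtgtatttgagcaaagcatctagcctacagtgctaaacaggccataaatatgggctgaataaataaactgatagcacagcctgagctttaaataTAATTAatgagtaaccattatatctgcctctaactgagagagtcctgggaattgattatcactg
Sema4c upstream, in Fam178b: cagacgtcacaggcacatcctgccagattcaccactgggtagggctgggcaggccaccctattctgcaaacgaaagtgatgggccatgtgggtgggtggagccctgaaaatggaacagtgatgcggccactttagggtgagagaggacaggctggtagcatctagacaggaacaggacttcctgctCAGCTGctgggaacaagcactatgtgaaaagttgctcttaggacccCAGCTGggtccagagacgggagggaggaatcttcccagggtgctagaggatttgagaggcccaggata
Ntn4 upstream: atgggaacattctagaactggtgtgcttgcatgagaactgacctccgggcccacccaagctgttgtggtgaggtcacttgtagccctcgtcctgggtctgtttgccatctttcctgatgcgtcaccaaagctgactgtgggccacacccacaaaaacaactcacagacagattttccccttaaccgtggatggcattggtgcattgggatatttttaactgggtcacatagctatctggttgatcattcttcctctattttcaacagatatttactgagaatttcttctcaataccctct

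The E-box core occurred in the Unc5d, Efna5 and Sema4c windows, the homeodomain core in the Sema3c window, and none of the 3 motifs was in the Ntn4 window. Among the member peaks more accessible in βTC6, 17 of 84 held TAATTA within the central 300 bases (20.2%), against 17.7% of all peaks more accessible in βTC6 and 9.86% of all 65053 peaks. Among the member peaks more accessible in αTC1, 9 of 28 held CAGCTG (32.1%), against 40.5% of all peaks more accessible in αTC1 and 23.8% of all peaks. TGTTTAC was in 7.86% of the 585 member peaks and 8.80% of all peaks. These are counts of letters and not of bound sites, and the calls chose the peaks.

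Many of these genes were expressed in both lines and others in one of them. Of the 70 entries, 19 reached 1 FPKM in all libraries of both lines, 7 in αTC1 alone and 11 in βTC6 alone, while 33 did so in neither line and 25 were under 1 FPKM in every library. FPKM is a level per transcript length and library size, so it can be compared between genes. The highest mean levels in αTC1 were those of Ntn4 (32.5 ± 1.23 FPKM, SD, n = 3) and Nrp2 (27.9 ± 7.95), whose libraries overlapped, followed by Sema4c (18.2 ± 0.820) and Robo2 (17.7 ± 2.44), which also overlapped each other. In βTC6 the order was Plxnb2 (65.6 ± 5.02), Robo2 (26.6 ± 3.63) and Unc5a (18.1 ± 2.92), each above the next in every library.

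A total of 37 entries passed the expression filter, FPKM of at least 1 in all 3 libraries of either line. Of these, 9 were higher and 4 lower in βTC6, with an FDR under 5% and a log2 fold change beyond 2 in either direction (edgeR quasi-likelihood test, Benjamini-Hochberg adjustment over 12195 genes). Among all genes tested, 10.2% were called higher and 4.08% lower in βTC6 (14.3% in either direction). For 7 of the 9 and for all 4, only 1 line had passed the filter, which in itself favours a difference, and the counts are given as a description. By FDR alone, 21 members were higher and 12 lower in βTC6, where 38.7% and 36% of all genes were (74.6% together). The median log2 fold change over the 37 was 0.59, against 0.0094 over all genes tested. The FPKM of all 13 called genes did not overlap between the lines, as the plot of levels by library shows, and neither did that of 99.9% of all genes called and 77.7% of all genes tested.

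**Figure D1:**
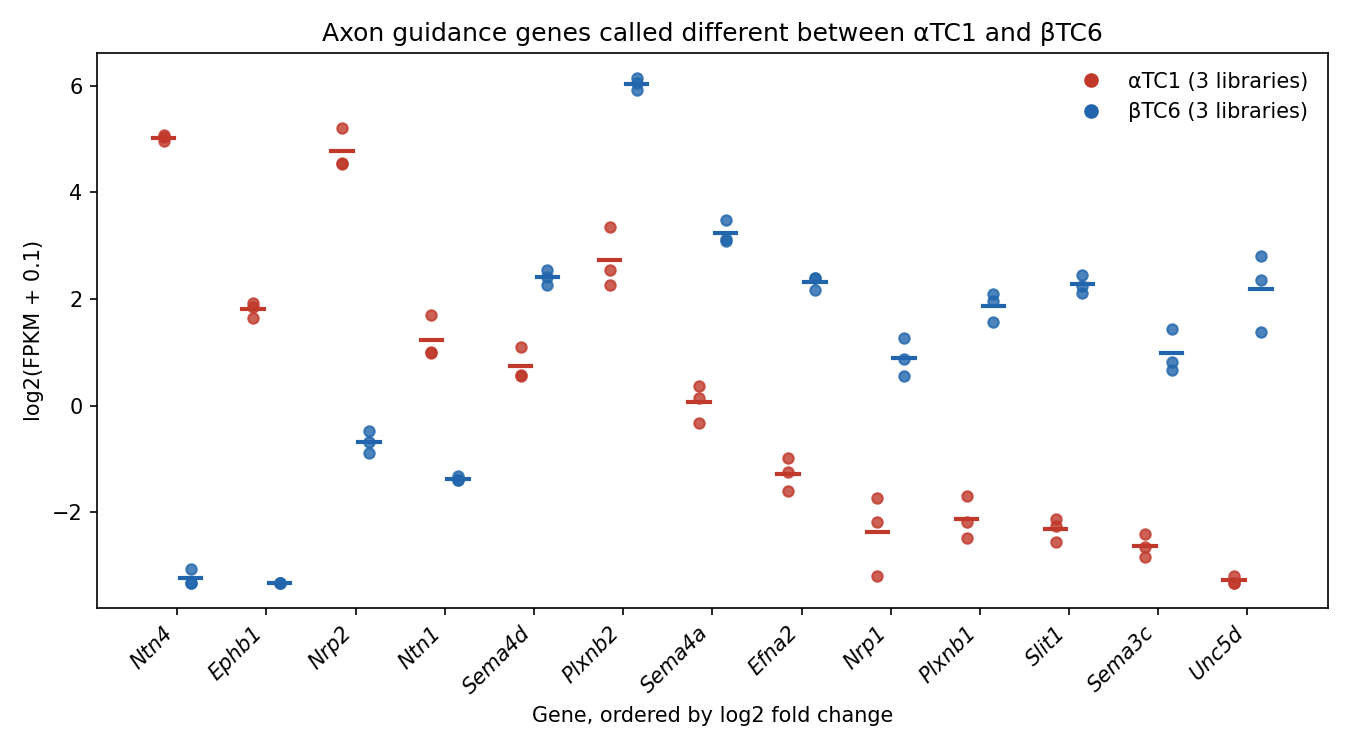
Expression of the 13 axon guidance genes called different between the lines, as log2(FPKM + 0.1), with 1 point per library and a bar at the mean of the 3 libraries of each line. The 4 genes on the left are higher in αTC1 and the 9 on the right higher in βTC6, with no overlap between the lines.

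Netrins, laminin-related secreted ligands, had most of their summed level in αTC1. It was 35.1 ± 0.555 FPKM in αTC1 and 0.483 ± 0.0153 in βTC6 (n = 3 each). Ntn4 (ENSMUSG00000020019, mm9 chr10:93103426-93209952), which binds laminins of the basement membrane, was at 33.5, 33.0 and 31.1 FPKM in the αTC1 libraries and at 0.02, 0 and 0 in the βTC6 libraries. The βTC6 libraries held 2 counts of Ntn4 together and the αTC1 libraries 8377, a ratio of 4307 with a 95% counting interval of 1192 to 35570. The fitted log2 fold change of Ntn4 was −11.82 ± 0.25 (SE, FDR 2.59e-09 by edgeR), or −14.46 without βTC6 replicate 1. Ntn1, the classical ligand of Dcc, was at 1.91, 1.88 and 3.13 FPKM in αTC1 and 0.30, 0.28 and 0.28 in βTC6. It fell by 2.94 ± 0.25 on the log2 scale (FDR 5.91e-06 by edgeR). Ntn3 and Ntn5 stayed under 1 FPKM in every library.

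Of the netrin receptors, Unc5a, Unc5c and Unc5d passed the filter. Unc5d (ENSMUSG00000063626, mm9 chr8:29757189-30329810), a repulsive netrin receptor, was at 0, 0 and 0.01 FPKM in αTC1 and 6.87, 2.52 and 5.01 in βTC6. The αTC1 libraries held 1 count of Unc5d against 2211 in βTC6, a ratio of 2150 with a 95% counting interval of 386 to 84965, and the fitted log2 fold change was 10.61 ± 0.68 (FDR 1.06e-06 by edgeR), or 12.49 without αTC1 replicate 3. All βTC6 libraries stood above every αTC1 library, replicate 2 being the lowest. Unc5a, of the same family, was high in both lines, at 5.93, 6.02 and 8.21 FPKM in αTC1 and 20.6, 18.7 and 14.9 in βTC6. Its log2 fold change of 1.497 ± 0.16 passed the FDR (2.56e-05 by edgeR) but not the fold threshold. Unc5c was at 5.39, 5.31 and 6.44 FPKM in αTC1 and 5.93, 5.04 and 6.19 in βTC6, ranges that overlapped, and was not called (log2 fold change 0.20 ± 0.11, FDR 0.12 by edgeR). Dcc, the attractive netrin receptor, was under 1 FPKM in every library, at 0.23 to 0.43 in αTC1 and 0.03 to 0.08 in βTC6.

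Of the neuropilins, one was called in each direction. Nrp2 (ENSMUSG00000025969, mm9 chr1:62749859-62865269) was at 23.2, 23.4 and 37.0 FPKM in αTC1 and 0.62, 0.44 and 0.52 in βTC6, with αTC1 replicate 3 above the other two. Nrp1 (ENSMUSG00000025810, mm9 chr8:130882973-131029362) was at 0.20, 0.12 and 0.01 FPKM in αTC1 and 2.32, 1.37 and 1.73 in βTC6. Both are co-receptors for class 3 semaphorins and for vascular endothelial growth factors. Nrp2 fell by 5.63 ± 0.24 on the log2 scale (FDR 9.55e-08 by edgeR), and Nrp1 rose by 4.13 ± 0.51 (FDR 7.32e-05), or by 4.85 without αTC1 replicate 1. The sum of both was 28.0 ± 7.86 FPKM in αTC1 and 2.33 ± 0.570 in βTC6.

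Plexins are the signalling receptors of the semaphorins, and one of them had the highest level of all members in βTC6. Plxnb2 (ENSMUSG00000036606, mm9 chr15:88985979-89011218) was at 4.69, 5.77 and 10.1 FPKM in αTC1 and 70.4, 60.4 and 66.0 in βTC6, and it rose by 3.25 ± 0.23 on the log2 scale (FDR 1.92e-06 by edgeR). The sum of the 9 plexins was 19.9 ± 3.27 FPKM in αTC1 and 85.0 ± 7.07 in βTC6, and Plxnb2 made up the greater part of it in βTC6. Plxnb1, its close relative, was at 0.08, 0.12 and 0.21 FPKM in αTC1 and 4.19, 3.78 and 2.87 in βTC6 (log2 fold change 4.72 ± 0.28, FDR 7.07e-07). The class A plexins that partner neuropilins did not pass the fold threshold. Plxna3 was at 3.52, 3.39 and 5.18 FPKM in αTC1 and 8.97, 7.17 and 8.44 in βTC6. Plxna3 and Plxna2 had log2 fold changes of 1.15 ± 0.18 and 1.07 ± 0.12, and Plxna1 one of −0.88 ± 0.16, all past the FDR by edgeR. Chromosome 6, which holds Plxna1, had a median RNA log2 fold change of −0.76.

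Semaphorins had the largest number of expressed members and summed to 62.5 ± 4.65 FPKM in αTC1 and 52.4 ± 6.11 in βTC6. Of 20 entries, 13 passed the filter, 3 were called higher in βTC6 and 0 lower, while 6 were higher and 5 lower by FDR alone. Among all genes tested, 10.2% and 4.08% were called, and 38.7% and 36% by FDR alone. Sema4a (ENSMUSG00000028064, mm9 chr3:88239881-88265104), a membrane-bound class 4 member, was at 1.2, 1.01 and 0.70 FPKM in αTC1 and 11.1, 8.35 and 8.59 in βTC6 (log2 fold change 3.69 ± 0.16, FDR 1.21e-07 by edgeR). Sema3c (ENSMUSG00000028780, mm9 chr5:17080099-17236086), a secreted ligand, was at 0.06, 0.09 and 0.04 FPKM in αTC1 and 2.62, 1.5 and 1.67 in βTC6 (log2 fold change 5.67 ± 0.26, FDR 1.61e-07). These levels were separate in every library. Sema4d, a ligand of Plxnb1, was at 1.38, 1.39 and 2.05 FPKM in αTC1 and 5.71, 5.20 and 4.72 in βTC6. Its log2 fold change of 2.00 ± 0.22 lay just past the threshold, and the call was lost when either αTC1 replicate 1 or 2 was left out (1.86 in both cases) and when βTC6 replicate 1 or 2 was left out (1.95 and 1.96).

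The semaphorins with the highest levels in αTC1 were not among the calls. Sema4c, a ligand of Plxnb2, was at 17.3, 18.2 and 18.98 FPKM in αTC1 and 5.57, 5.18 and 3.87 in βTC6, and it fell by 1.80 ± 0.15 on the log2 scale (FDR 6.44e-06 by edgeR), short of the fold threshold. Sema6d, a transmembrane ligand of class A plexins, was at 12.9 to 14.4 FPKM in αTC1 and 3.69 to 5.11 in βTC6 (log2 fold change −1.57 ± 0.12). The secreted Sema3a and Sema3e were also lower in βTC6 by FDR, with log2 fold changes of −1.79 ± 0.15 and −1.76 ± 0.20. Sema4b was at 8.23, 8.62 and 8.90 FPKM in αTC1 and 10.2, 8.15 and 10.2 in βTC6 and was not called (FDR 0.0985 by edgeR). Sema4g had a log2 fold change of −1.91 ± 0.46, with αTC1 replicate 3 at 3.76 FPKM and the other αTC1 libraries at 1.06 and 1.33.

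**Figure D2:**
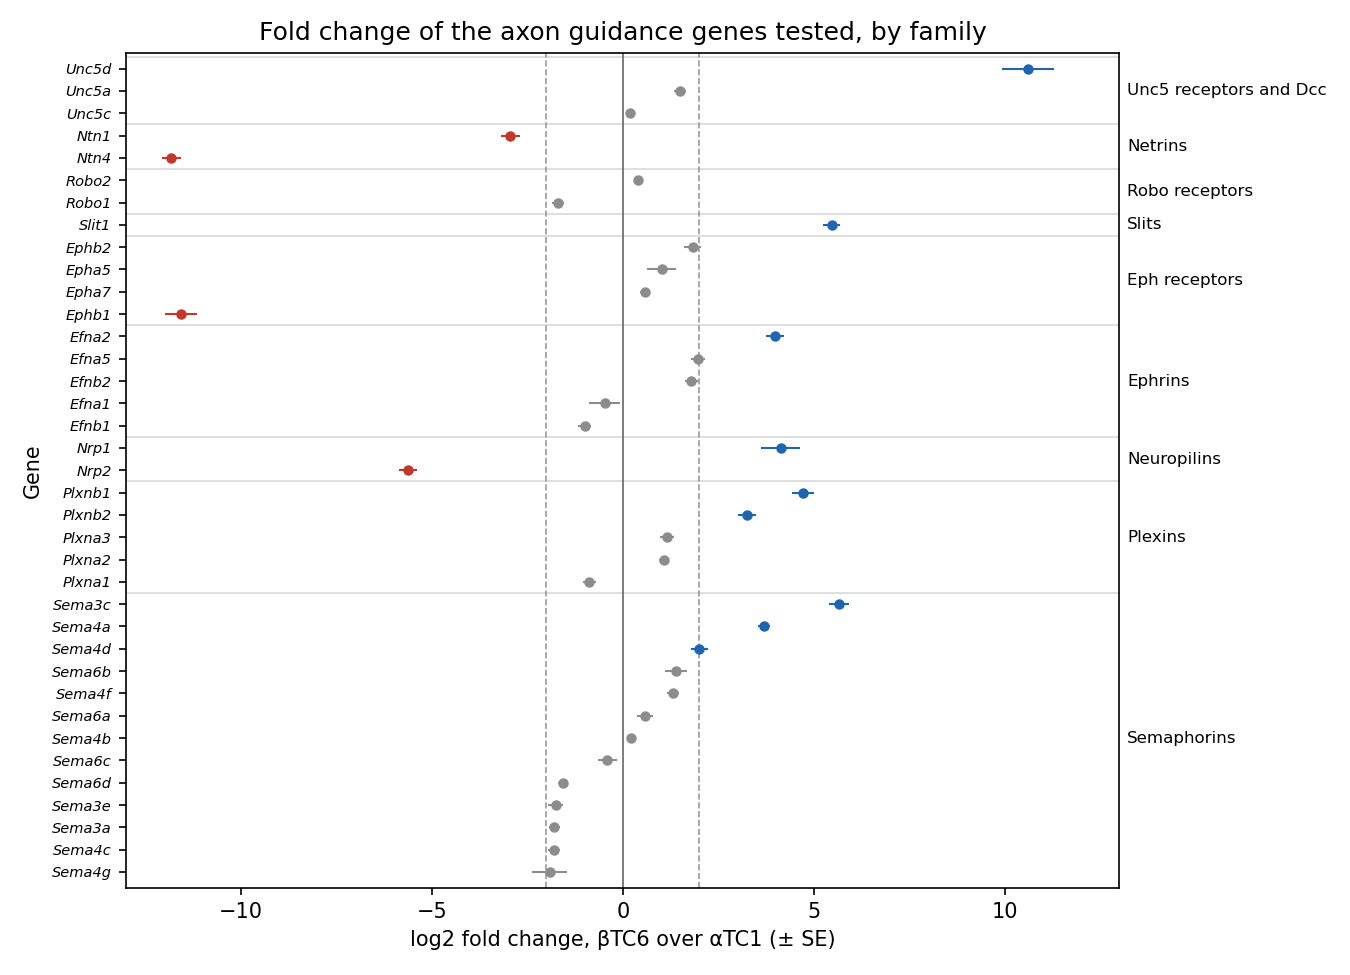
Log2 fold change, βTC6 over αTC1, with its SE for the 37 entries that passed the expression filter, grouped by family. Blue points were called higher and red points lower in βTC6, grey points were not called, and the dashed lines mark a log2 fold change of 2 in either direction.

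Slits, the secreted repellents that bind Robo receptors, summed to 0.163 ± 0.0635 FPKM in αTC1 and 5.92 ± 0.247 in βTC6. Slit1 (ENSMUSG00000025020, mm9 chr19:41674747-41818155) carried most of this sum, at 0.07, 0.11 and 0.13 FPKM in αTC1 and 4.24, 5.40 and 4.64 in βTC6 (log2 fold change 5.47 ± 0.22, FDR 7.52e-08 by edgeR). Slit2 was at 0.02 to 0.09 FPKM in αTC1 and 0.34 to 0.76 in βTC6, below the filter. Slit3, also below it, was at 0, 0 and 0.02 FPKM in αTC1 and 0.65, 0.32 and 1.01 in βTC6. Of the 4 Robo receptors, only Robo1 and Robo2 passed the filter. Robo2 was at 16.0, 16.7 and 20.5 FPKM in αTC1 and 24.0, 25.2 and 30.8 in βTC6. Its log2 fold change was 0.40 ± 0.11 (FDR 0.00971 by edgeR), but 0.34 ± 0.44 with spike-in factors (FDR 0.635). Robo1 was at 6.87, 7.54 and 8.65 FPKM in αTC1 and 2.23, 1.83 and 2.76 in βTC6, and it fell by 1.70 ± 0.15 (FDR 7.99e-06). The FPKM of Robo1 and of Robo2 did not overlap between the lines.

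Ephrins and Eph receptors, are both bound to membranes and signal between touching cells. The ephrins summed to 17.8 ± 4.94 FPKM in αTC1 and 25.95 ± 2.02 in βTC6, and the Eph receptors to 13.3 ± 1.42 and 14.4 ± 1.14. Ephb1 (ENSMUSG00000032537, mm9 chr9:101824458-102257023), a receptor of B-class ephrins, was at 3.5, 3.02 and 3.71 FPKM in αTC1 and at 0 in all 3 βTC6 libraries. It was at least 386-fold lower in βTC6 (FDR 4.61e-07 by edgeR), computed against a floor of 3 counts over the group. Ephb2, its paralogue, moved the other way, from 0.31 to 0.58 FPKM in αTC1 to 1.40 to 1.58 in βTC6 (log2 fold change 1.83 ± 0.22, FDR 6.12e-05 by edgeR). The most abundant receptor, Epha7, was at 5.39, 5.57 and 4.72 FPKM in αTC1 and 7.70, 6.22 and 6.86 in βTC6. Its log2 fold change was 0.57 ± 0.12 (FDR 0.00174 by edgeR), but 0.52 ± 0.44 with spike-in factors (FDR 0.431). Epha5, a receptor known in beta cell contacts, was at 2.67, 2.39 and 0.75 FPKM in αTC1 and 3.5, 2.98 and 4.31 in βTC6. Its log2 fold change of 1.02 ± 0.38 had an FDR of 0.0339 by edgeR, which was 0.0752 with DESeq2, 0.137 with spike-in factors, and 0.0712 or 0.105 without βTC6 replicate 1 or 3.

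Among the ephrins, Efna2 was at 0.32, 0.23 and 0.41 FPKM in αTC1 and 5.17, 5.13 and 4.39 in βTC6 (log2 fold change 3.97 ± 0.23, FDR 6.3e-07 by edgeR). Efna5, the ligand paired with Epha5 in beta cells, was at 1.53, 1.77 and 2.59 FPKM in αTC1 and 8.25, 8.61 and 8.06 in βTC6. Its log2 fold change of 1.97 ± 0.18 lay just under the threshold and passed it without αTC1 replicate 3 (2.22). Its other identifier, whose gene lies within it, held up to 1.81 FPKM, and reads may have been split between them. Efnb1 was the most abundant ephrin of αTC1, at 9.36, 9.49 and 13.3 FPKM against 6.07, 6.01 and 4.18 in βTC6. Its log2 fold change was −0.999 ± 0.17 (FDR 0.000638 by edgeR), but −0.963 ± 0.449 with spike-in factors (FDR 0.0974). Efna1, at 1.83 to 5.82 FPKM, was not past the FDR (0.3 by edgeR).

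Other genes of the guidance pathways, listed by function, were also compared. Of 75 entries for co-receptors, adhesion molecules and intracellular partners, 59 passed the filter, 11 were called higher and 2 lower in βTC6 by edgeR (22.03% of those tested, where 14.3% of all genes were called). Of these 13, 11 had passed the filter in 1 line only, which in itself favours a difference, and the counts are given as a description. Among those called higher, Nrcam, a partner of neuropilins, had a mean level of 1.04 FPKM in αTC1 and 23.1 in βTC6. The adhesion molecule L1cam was at 0.773 and 6.80, the netrin co-receptor Dscam at 0.0433 and 3.31, and the kinase Pak1, an effector of Rac, at 0.0867 and 17.6. The 2 lower genes were Rgma, the ligand of neogenin, at 7.58 FPKM in αTC1 and 0.03 in βTC6, and Mical1, a plexin effector, at 1.78 and 0.0633.

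The chromatin around the member genes was compared next, by the consensus ATAC-seq peaks nearest to them. A peak value is the number of reads in the region scaled to the effective library size. Of the 585 peaks, 84 were more accessible in βTC6 and 28 more accessible in αTC1 (limma on log2 of the normalized read count + 1, with the same thresholds, 5 libraries of each line). That is 19.1% of the member peaks, against 18.3% of all 65053 peaks, of which 12.9% were called higher and 5.38% lower in βTC6. The counts depended on the test, since edgeR on the recovered reads called 162 and 49 (36.1% of the member peaks, against 30.03% of all peaks), and limma with a pseudocount of 5 called 28 and 3 (5.30%, against 3.82%). By FDR alone, 323 peaks were higher and 144 lower in βTC6, where 39.9% and 38.1% of all peaks were (78% together), and the median log2 fold change was 0.69 over the member peaks and 0.0011 over all peaks. Within replicates 1 to 3 the counts were 88 and 25, and within replicates 4 and 5 they were 104 and 36. βTC6 replicate 5 stood above the other βTC6 libraries at several member promoters, and without it 77 peaks were called higher and 29 lower. With quantile normalization on top of the authors' scaling, the split was 62 higher to 44 lower (58.5% higher), against 75% higher as reported, while over all peaks it was 52.5%, against 70.6%. Of the 84, 44 (52.4%) lay near Efna5, Sema3d, Unc5d, Efnb2 and Robo1, the genes with the most such calls. These genes held 180 (30.8%) of the 585 peaks. Choosing them by their calls in itself favours the higher share.

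Of the 74 member peaks within 2 kb of a start site, 10 were called higher in βTC6 and 0 lower by limma, where 5.51% and 1.41% of all 14582 promoter peaks were called (6.93% together). By FDR alone, 39 member promoter peaks were higher and 13 lower in βTC6, where 23.4% of all promoter peaks were higher and 52.3% lower (75.7% together). The 10 called promoter peaks belonged to Unc5d (2 peaks), Sema3c, Nrp1, Slit2, Sema3d, Unc5b, Efnb2, Epha5 and Sema5a. The Epha5 promoter had the highest level of these, 21.0 ± 6.33 normalized reads in αTC1 and 100.7 ± 15.8 in βTC6 (limma estimate 2.25 ± 0.17, log2). Of the 31 Epha5 peaks, 6 (19.4%) were called higher, against 12.9% of all peaks, while Epha5 RNA was not called. The 511 distal member peaks held 74 higher and 28 lower calls (20.0%), against 21.6% of all distal peaks. The median distance from the start site was 123801 bp for member peaks and 28527 bp for all peaks. Of the 585, 84 overlapped an exon, 251 lay in introns and 250 were intergenic, and 298 (50.9%) lay inside the gene named as nearest. Of the 28 peaks called lower, 19 were intronic and 7 intergenic, and of the 84 called higher, 40 and 32.

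Of the 9 genes called higher in βTC6 by RNA-seq, 6 had a promoter peak, and all 6 were higher by FDR and 3 past the fold threshold. Among all genes called higher, 921 had such a peak, of which 752 were higher by FDR and 309 past the fold threshold. The peak at the start site of Unc5d was at 0.840, 1.26, 1.65, 0.682 and 0.433 normalized reads in αTC1 and 45.7, 44.7, 56.1, 49.1 and 67.8 in βTC6 (log2 fold change 4.78 ± 0.19, FDR 4.41e-14 by limma). The Sema3c promoter was at 6.16, 5.48, 5.71, 6.14 and 4.77 in αTC1 and 90.3, 85.5, 83.1, 95.9 and 108.6 in βTC6 (3.81 ± 0.11, FDR 1.17e-15 by limma). The Nrp1 promoter was at 4.76, 2.11, 2.71, 3.96 and 1.30 in αTC1 and 35.6, 37.7, 40.3, 36.2 and 52.5 in βTC6 (3.45 ± 0.21, FDR 1.25e-11 by limma). At all 3 promoters every βTC6 library lay above every αTC1 library. A call of this size in itself favours such a separation, and its share over all peaks was not computed. The Plxnb2 promoter, whose RNA had the highest level of all members in βTC6, was at 6.02, 6.46, 5.86, 4.78 and 5.06 in αTC1 and 15.1, 18.9, 23.5, 22.1 and 18.5 in βTC6 (1.63 ± 0.15, FDR 8.13e-09 by limma). It passed the FDR and not the fold threshold, as did the promoters of Plxnb1 and Sema4d (0.93 and 0.96).

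All 4 genes called lower in βTC6 had a promoter peak, of which 3 were lower and 1 higher by FDR and 0 were past the fold threshold. Among all genes called lower, 335 had such a peak, of which 278 were lower and 16 higher by FDR, and 54 lower and 4 higher past the fold threshold. The Ntn4 promoter was at 27.3, 26.7, 28.6, 24.3 and 18.5 normalized reads in αTC1 and 8.24, 12.9, 10.8, 9.27 and 7.04 in βTC6 (log2 fold change −1.30 ± 0.16, FDR 2.32e-07 by limma). The Nrp2 promoter was at 41.3, 46.8, 50.3, 42.6 and 35.1 in αTC1 and 27.8, 26.3, 17.2, 14.1 and 26.1 in βTC6 (−0.96 ± 0.16, FDR 1.31e-05). Both fell past the FDR and neither past the fold threshold, while in βTC6 their RNA was at most 0.02 FPKM and at 0.44 to 0.62 FPKM. The only peak nearest to Ephb1, at its start site, was at 4.62, 3.93, 3.46, 3.96 and 3.32 in αTC1 and 2.56, 1.85, 0.405, 0.713 and 0.563 in βTC6 (−1.22 ± 0.24, FDR 0.000103 by limma). Other peaks of Ntn4 and Nrp2 fell further. For Ntn4 the upstream peak printed above, at −20359 bp from the start site, was at 50.6, 52.1, 61.9, 59.2 and 43.2 in αTC1 and 2.27, 2.67, 1.89, 2.71 and 0.469 in βTC6 (−4.24 ± 0.21, FDR 9.2e-13). For Nrp2 an intragenic peak at 13787 bp went from 11.3 ± 2.94 to 1.27 ± 0.631 (−2.44 ± 0.24, FDR 1.46e-08), whereas a peak at −278130 bp rose from 3.44 ± 0.330 to 19.8 ± 3.41 (2.22 ± 0.16, FDR 2.27e-10).

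**Figure D3:**
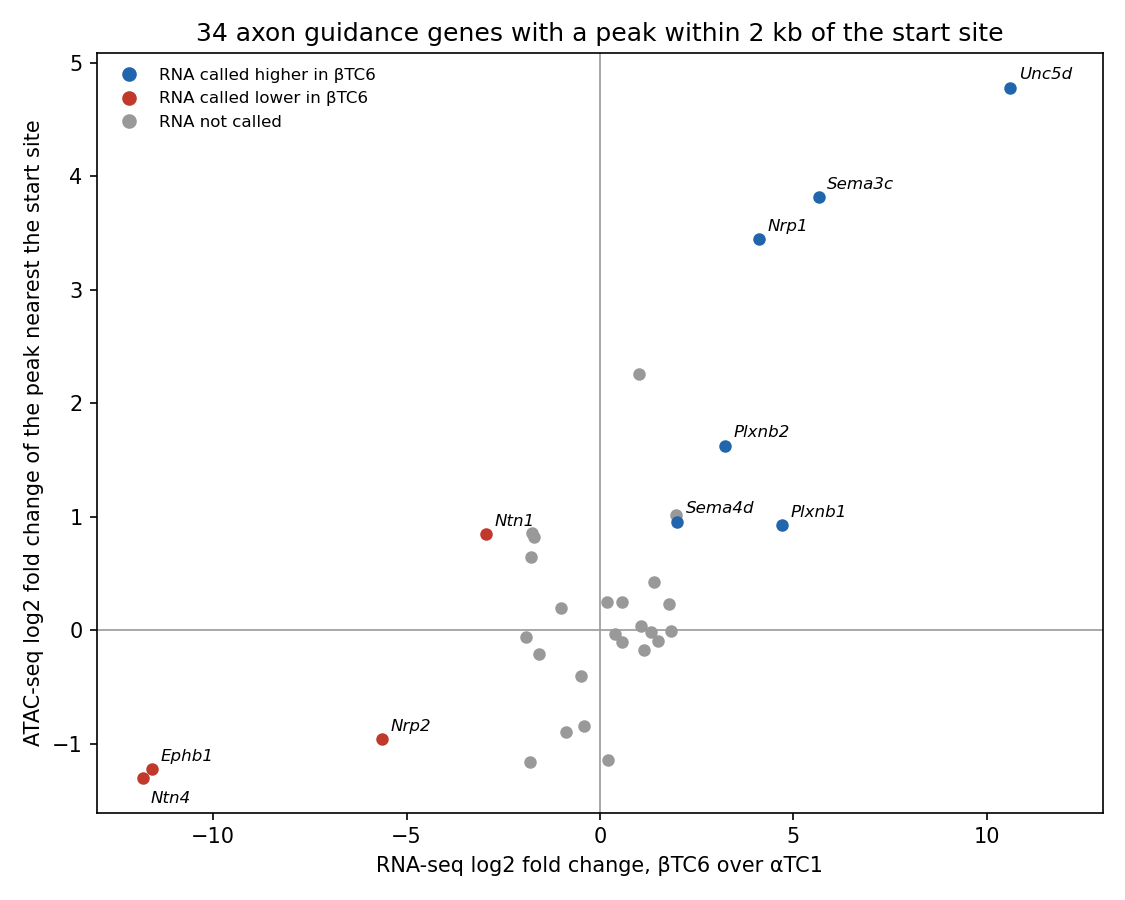
ATAC-seq log2 fold change of the peak nearest the start site (vertical axis) against the RNA-seq log2 fold change of the gene (horizontal axis), for the 34 members that passed the expression filter and had such a peak within 2 kb. Blue and red points were called higher or lower in βTC6 by RNA-seq, grey points were not called, and Ntn1 lies in the upper left, with less RNA and a more accessible promoter in βTC6.

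Over the 34 members with a tested level and a promoter peak, the 2 log2 fold changes had the same sign for 22 genes (64.7%, against 65.5% of all 9516 such genes; Pearson r = 0.712, Spearman rho = 0.625). Over all these genes r and rho were 0.744 and 0.586. These are descriptions across genes of the same libraries, and genes are not independent replicates. The RNA and promoter of several members were called by FDR in opposite directions. Ntn1 RNA was lower in βTC6, while its promoter peak was at 2.80, 2.81, 2.55, 1.501 and 0.867 normalized reads in αTC1 and 4.69, 3.69, 5.68, 5.56 and 2.91 in βTC6 (0.85 ± 0.24, FDR 0.00351 by limma). For Robo1 the promoter rose from 39.3 ± 3.01 to 70.5 ± 5.11 (0.83 ± 0.09, FDR 3.72e-08 by limma) and the RNA fell. Sema3a and Sema3e likewise had less RNA and more accessible promoters in βTC6 (0.64 ± 0.12 and 0.86 ± 0.16). The promoter peaks of Sema3a (chr5:13399089-13400364) and Ntn1 (chr11:68200242-68200552) lay inside the annotated genes. The outer starts of these genes are at chr5:13125593 and chr11:68214325, so the start sites used for both are internal. The abundant receptors Robo2 and Unc5a had promoter peaks that did not pass the FDR, at 51.2 ± 1.95 and 50.0 ± 2.55 for Robo2 and at 21.8 ± 1.88 and 20.7 ± 4.12 for Unc5a, in αTC1 and βTC6.

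Several members under the expression filter had peaks called higher in βTC6. The Slit2 promoter was at 5.18, 4.07, 3.76, 3.28 and 2.31 normalized reads in αTC1 and 42.0, 46.6, 41.9, 37.1 and 51.5 in βTC6 (log2 fold change 3.27 ± 0.16, FDR 6.76e-13 by limma), and all 18 of its peaks were higher in βTC6 by FDR, 6 of them past the fold threshold, where 39.9% and 12.9% of all peaks were. The Sema3d promoter was at 7.003, 10.3, 8.27, 8.33 and 6.5 in αTC1 and 57.9, 61.5, 55.0, 62.8 and 113.6 in βTC6 (2.93 ± 0.17, FDR 5.25e-12), and 9 of its 24 peaks were called higher. Their RNA in βTC6 was at 0.34 to 0.76 and 0.24 to 0.50 FPKM, under the expression filter, compared with at most 0.09 and 0.01 FPKM in αTC1. The median distance of the Slit2 peaks from its start site was 515870 bp. On chromosome 5, which holds Slit2, Sema3c, Sema3d and Epha5, the median log2 fold change of all peaks was 0.31. The Unc5b promoter rose from 2.17 ± 0.279 to 20.1 ± 1.45 (2.74 ± 0.17, FDR 1.51e-11), with RNA at 0.04 to 0.07 FPKM in αTC1 and 0.73 to 1.29 in βTC6. No peak lay within 2 kb of the start site of Slit1, Efna2 or Sema4a, 3 of the 9 genes called higher by RNA-seq. The only Slit1 peak, at 5481 bp, rose from 4.08 ± 1.14 to 12.4 ± 3.22 (1.40 ± 0.22, FDR 7.72e-06 by limma). Of the 30 Dcc peaks, 6 (20%) were called higher and 2 (6.67%) lower in βTC6, against 12.9% and 5.38% of all peaks. The 6 had means of 1.07 to 6.72 normalized reads in αTC1 and 8.28 to 29.8 in βTC6. Dcc RNA was at most 0.43 FPKM in any library.

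**Figure D4:**
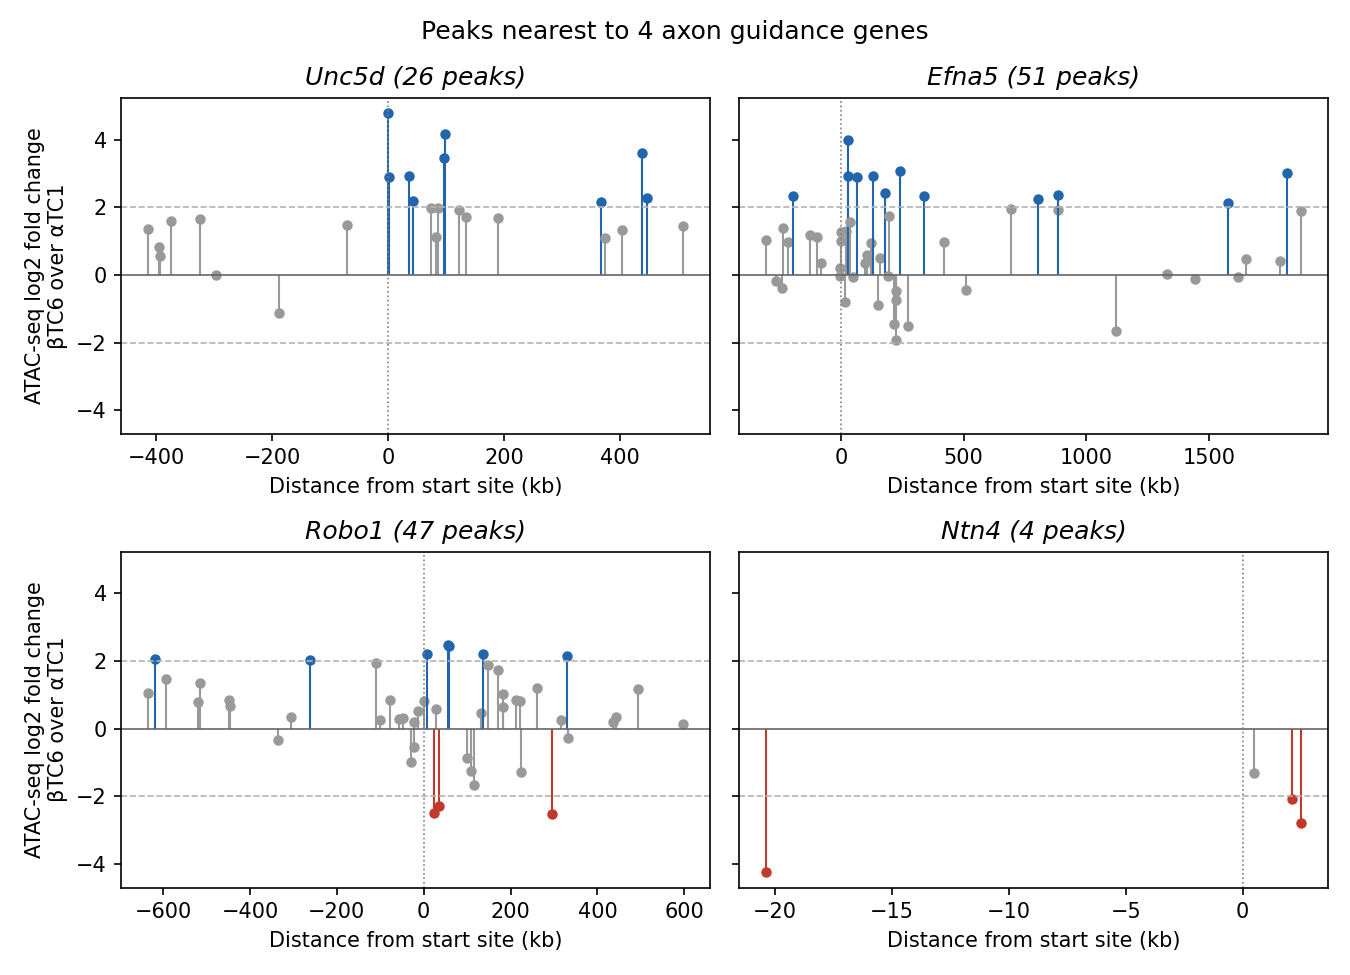
ATAC-seq log2 fold change, βTC6 over αTC1, of every peak nearest to Unc5d, Efna5, Robo1 and Ntn4, against its distance from the start site in kb. Blue points were called higher and red points lower in βTC6, grey points were not called, and dashed lines mark a log2 fold change of 2 in either direction. Of the peaks, 9 of 26 Unc5d peaks and 12 of 51 Efna5 peaks were called higher, 3 of 4 Ntn4 peaks lower, and Robo1 had 7 higher and 3 lower. The genes are among those with the most called peaks, and 12.9% of all peaks were called higher and 5.38% lower.

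Several called peaks lay around each of Unc5d, Efna5 and Robo1, which were described because they were among the genes with the most called peaks. Of all 65053 peaks, 12.9% were called higher and 5.38% lower in βTC6. Unc5d had 26 peaks, of which 9 were called higher and 0 lower in βTC6, including the intronic region printed above at 97678 bp from the start site. That region was at 3.64, 3.09, 3.46, 2.32 and 3.32 normalized reads in αTC1 and 73.8, 75.1, 68.9, 71.5 and 75.8 in βTC6 (4.16 ± 0.12, FDR 1.44e-15 by limma). Efna5 had 51 peaks with 12 called higher and 0 lower, and its intronic region at 29920 bp was at 1.68, 3.65, 2.25, 2.46 and 2.89 in αTC1 and 50.1, 51.5, 47.4, 55.8 and 71.0 in βTC6 (3.98 ± 0.16, FDR 5.58e-14 by limma). In both regions every βTC6 library lay above every αTC1 library, which the choice of regions by the largest statistics in itself favours. Robo1 had 47 peaks with 7 called higher (14.9%) and 3 lower (6.38%), near the shares over all peaks. Its RNA was lower in βTC6. Efnb2 had 32 peaks with 7 called higher and 1 lower, the 7 lying between 1662 and 1670969 bp from its start site.

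Among the peaks more accessible in αTC1, the region printed above near Sema4c had the highest mean level in αTC1. It was at 103.4, 104.8, 107.5, 109.0 and 125.4 normalized reads in αTC1 and 6.11, 2.87, 7.30, 5.28 and 1.97 in βTC6 (log2 fold change −4.38 ± 0.20, FDR 3.88e-13 by limma). The promoter of Sema4c itself went from 87.0 ± 8.24 to 38.3 ± 3.67 (−1.16 ± 0.09, FDR 8.96e-10). An intronic Unc5c peak at 10669 bp went from 46.9 ± 4.09 to 9.80 ± 1.75 (−2.16 ± 0.12), although Unc5c RNA was not called. A peak assigned to Plxnd1, at −62049 bp and overlapping an exon of Tmcc1, went from 45.7 ± 5.86 to 9.73 ± 2.1 (−2.13 ± 0.13). On chromosome 1, which holds Nrp2 and Sema4c, the median log2 fold change of all peaks was −0.61, and on chromosome 6, which holds Plxnd1, it was −0.79.

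The mixtures did not enter the test between the lines, and their signal was set against the share of αTC1 cells. They combine the same lines in known shares, and the peaks were chosen for their difference between the pure lines. A trend with the share was therefore given in advance, and the p-values below add no support to the calls. For 10 peaks, the 5 called ones with the largest moderated statistic in each direction, Pearson's r against the percentage of αTC1 cells was −0.991 to −0.932 for the 5 higher in βTC6 and 0.897 to 0.963 for the 5 lower (9 mixtures, exact permutation tests, two-sided). Spearman's rho ran from −1 to −0.933 and from 0.883 to 1. All 10 passed a Benjamini-Hochberg adjustment over the 10 peaks in the exact permutation test, with adjusted p from 1.84e-05 to 0.000485 for Pearson's r and up to 0.00308 for Spearman's rho, and the smallest p that 9 mixtures can give is 5.51e-06. Without the 10% and 90% mixtures, r was −0.986 to −0.915 and 0.814 to 0.936 over 7 mixtures, and the adjusted p of the exact permutation test reached at most 0.0266.

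The Unc5d intron peak fell from 72.2 normalized reads at 10% αTC1 cells to 30.8 at 50% and 7.11 at 90%. The Ntn4 upstream peak moved the other way, from 6.86 at 10% to 23.4 at 50% and 43.7 at 90%. Both lay between the means of the pure lines at every composition. Averaged over the 84 member peaks called higher, the signal was 25.2 ± 3.59 in βTC6 (n = 5), 27.9 at 10% αTC1 cells, above the mean of pure βTC6, 15.3 at 50% and 2.80 ± 0.114 in αTC1 (n = 5). Over the 28 called lower, it was 2.49 ± 0.371 in βTC6, 5.04 at 10%, 11.9 at 50% and 21.1 ± 0.694 in αTC1.

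**Figure D5:**
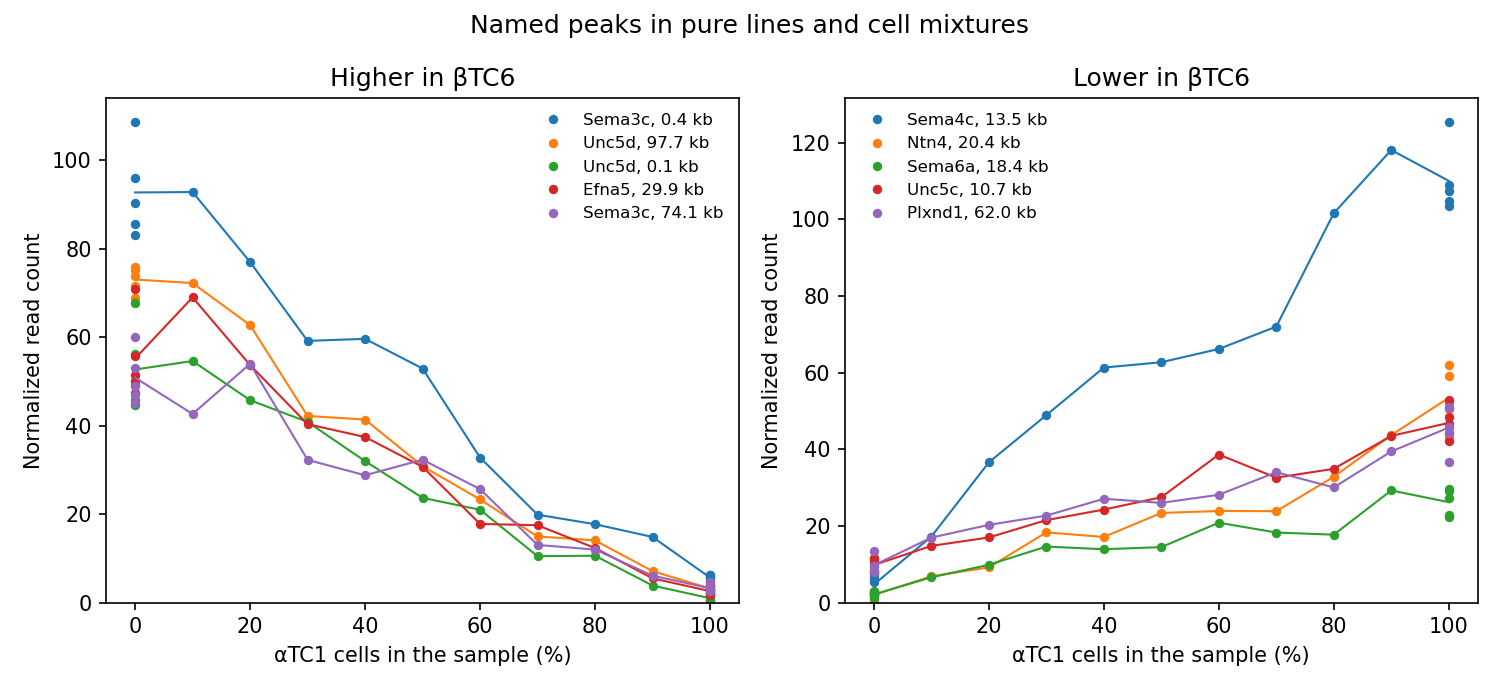
Normalized read count of 10 named peaks in pure βTC6 (0%), 9 mixtures and pure αTC1 (100%), labelled by the nearest gene and the absolute distance from its start site, with points for single libraries and lines through the means of the pure lines and the mixtures. From the 10% to the 90% mixture the 5 peaks on the left fall and the 5 on the right rise, with reversals at single steps.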

How the data were processed

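RNA-seq and ATAC-seq of the 2 lines were analysed from the deposited tables. The members and all lists were chosen with earlier results of these data known. Per the labels and the study's methods, the authors made the RNA-seq expected counts and FPKM values with Trim Galore, Bowtie 2 and RSEM (version 1.2.12) on Ensembl genes and mm9. RSEM was run with no strand setting named in the sources used here, so reads of overlapping antisense genes may not be separated. The authors made the ATAC-seq signal, TMM-normalized read counts in consensus peaks, with Trimmomatic (0.32), BWA (0.7.9a), Picard (1.95), MACS2 (2.1.0) and DiffBind (2.2.5) on mm9, and named nearest genes with HOMER (4.6). The tool versions are from the submitters' processing notes. In the deposited signal, 100% of values were whole multiples of the lowest value of their library (tolerance 0.01 reads), so whole reads were recovered. No value was 0, and a peak at the lowest value may hold no read. Replicates stayed separate in every file.

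Expected counts were rounded and tested with edgeR (4.0.16; TMM, quasi-likelihood) over genes that reached 1 FPKM in each of the 3 libraries of at least one line, without the 92 spike-ins, which took 0.436 to 0.971% of counts. The spike-in factor method of the study (RUVSeq) was not used here, and spike-in scaling was an alternative. ATAC-seq values were tested with limma (3.58.1; trend) as log2(value + 1), a scale that understates changes of low peaks. Called means an FDR under 5% with a log2 fold change beyond 2 in either direction. Counting intervals are exact at 95% and, like the floor of 3 counts, cover counting error only. Members were described with every library's value if called or among the 2 highest by mean FPKM in their family, and others by range. Peaks were described if nearest the start site of such a gene within 2 kb, among the 5 called peaks with the largest moderated statistic in each direction, or near the genes with most called peaks. Members and peaks outside this rule, among them Slit2, Sema3d, Unc5b, Dcc, Sema6d, Sema3a, Sema3e, Sema4g, Plxna1, Plxna2, Ephb2, Efna1 and distal peaks of Nrp2 and Slit1, and the pathway genes named, were chosen after their values were seen. Windows of 300 bases were read from the mm9 genome and annotated with GENCODE M1, and all 21 chromosomes of the peak table fitted its lengths. Tests were run on simulated data first. Alternatives covered scaling, tests, filters, pseudocounts, a replicate block and leaving out libraries. They also covered a split of ATAC-seq replicates 1 to 3 from 4 and 5, which no label names as a group. Counting both closely alike αTC1 RNA-seq replicates as 1 was chosen after seeing the data. DESeq2 (1.42.0) served as an alternative. All sample columns of the tables were matched, with 0 left over.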

Additional observations from a re-analysis of the deposited data

Results flagged for a closer look

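In 132 groups of 5 libraries, from 66 peaks (the member peaks nearest a start site within 2 kb, the other peaks described by the naming rule, the Slit1 peak and the called Nrp2 peaks), the highest or lowest library was tested for its gap to the others (Dixon's test, critical value 0.71). Chance flags about 1 in 20 groups, and 13 were found. In 8 of these βTC6 replicate 5 was the high library, all at promoters. They were those of Sema3d (113.6 normalized reads, the others 55.0 to 62.8), Epha6 (83.0, the others 42.6 to 44.9), Sema3a (81.5, the others 49.4 to 57.2), Robo1 (79.4, the others 66.6 to 69.6), Sema6a (55.02, the others 29.5 to 33.1), Nrp1 (52.5, the others 35.6 to 40.3), Dcc (26.7, the others 14.5 to 16.2) and Epha4 (21.2, the others 10.4 to 13.1). Without this library the Sema3d promoter had a log2 fold change of 2.75 and that of Nrp1 3.35, both still called. The Sema6a promoter, not past the FDR with it, was at −0.26 without it (FDR 0.033 by limma). The Sema4c upstream peak was at 125.4 in αTC1 replicate 5 (the others 103.4 to 109.0). The Sema3c intron peak was at 4.76 in αTC1 replicate 1 (the others 2.53 to 3.16). The Plxnd1 peak was at 13.3 in βTC6 replicate 2 (the others 8.07 to 9.46). The Plxna3 promoter was at 22.1 in αTC1 replicate 3 (the others 16.0 to 17.6). The only low library was αTC1 replicate 2 at the Slit1 peak, at 2.11 (the others 4.20 to 4.96). Leaving out the library concerned changed 0 of the 13 calls.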

How the results depend on the processing

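With no expression filter, 17 members were called higher and 8 lower in βTC6 by RNA-seq, and 34 were higher by FDR alone, since more genes were tested. DESeq2, DESeq2 size factors and spike-in factors each gave 9 and 4. By FDR alone, spike-in factors gave 16 and 10 (16.8% and 10.9% of all genes). A mean FPKM of at least 1 as the filter gave 7 and 4, with Sema3c and Nrp1 not tested. With αTC1 RNA-seq replicates 1 and 2 summed, chosen after seeing the data, the counts were 8 and 5. Leaving out 1 RNA-seq library gave 8 to 10 higher and 4 to 5 lower, and by FDR alone 19 to 21 and 12 to 12. For ATAC-seq, edgeR on recovered reads called 162 higher and 49 lower (limma 84 and 28), and 13794 and 5739 of all peaks (limma 8409 and 3502). With no expression filter, 2510 and 1020 of all genes were called (1245 and 498 with it). A pseudocount of 0.5 gave 125 and 40 (17.3% and 7.11% of all peaks) and one of 5 gave 28 and 3 (2.56% and 1.26%). Quantile normalization gave 44 lower (7.74%). Promoter peaks alone held 10 higher and 0 lower, and 39 and 13 by FDR alone. A mean of at least 5 normalized reads left 345 member peaks, with 77 called higher and 19 lower (14.7% and 6.94% of all peaks so tested). By FDR alone it gave 194 and 89 (35.1% and 44.9% of all peaks so tested). Leaving out 1 ATAC-seq library gave 77 to 89 higher and 26 to 30 lower, and 313 to 322 and 138 to 144 by FDR alone. The promoter peaks of Robo2 and Unc5a, never called, changed sign, to 0.39 and 0.016 with quantile normalization and to 0.035 for Robo2 with replicates 4 and 5 only. Leaving out 1 library gave −0.17 (without βTC6 replicate 4) to 0.028 (without βTC6 replicate 5) for Unc5a. Sema4d fell under the fold threshold with no filter (1.95) and with the summed replicates (1.88), and the Unc5c and Plxnd1 peaks with a pseudocount of 5. Beyond fewer or more features tested, the cause was not tested. Replicate numbers did not pair the samples: correlations of same-numbered libraries were −0.047 to 0.0263 for RNA-seq and −0.0019 to 0.069 for ATAC-seq. A replicate block gave 9 and 4 calls by RNA-seq (21 and 12 by FDR alone) and 84 and 28 by ATAC-seq (325 and 144 by FDR alone). Log2 values in the mixtures kept all 10 peaks past the adjusted threshold. Depth limits genes under 1 FPKM, such as Slit3 and Dcc, and peaks near 1 read in a library.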
